A study of Mus musculus with 12 samples.

Results

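The glucocorticoid receptor gene Nr3c1, the steroid-activating enzyme gene Hsd11b1 and 6 genes that glucocorticoids are known to induce (Tsc22d3, Fkbp5, Sgk1, Zbtb16, Klf9 and Errfi1) were examined in the livers of mice fed alcohol. These 8 genes were taken by symbol from the 54232 Ensembl genes of the count table, and all 8 were among the 14168 genes with enough counts to be tested. Whole liver RNA of male C57BL6/J mice was sequenced, with 1 library per mouse, in 5 pair-fed (PF) and 7 alcohol-fed (AF) mice. PF mice received an isocaloric high-fat liquid diet for 8 weeks, and AF mice received the high-fat liquid diet with ethanol, raised to 27 g/kg/day over that time, and from the second week on a weekly binge of 5 g/kg. The labels give the age of all mice as 8 weeks. Both groups belong to the intragastric model of alcohol-associated steatohepatitis (ASH), whose regimen, per the study's methods, also includes solid food rich in cholesterol and saturated fat. Plasma corticosterone, the mouse glucocorticoid, was not among the measurements analysed here.

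Glucocorticoids are steroid hormones of the adrenal cortex that rise in stress and follow a daily rhythm. In the cytoplasm the glucocorticoid receptor is held ready by heat shock proteins and the cochaperones that join them, and after binding the hormone it enters the nucleus, where it binds a palindromic sequence, the glucocorticoid response element, and raises or lowers transcription nearby. In the liver it is known for inducing enzymes of gluconeogenesis and amino acid breakdown, and in immune cells for damping inflammation. Hsd11b1 encodes the enzyme that regenerates active corticosterone from its inactive keto form inside the hepatocyte. Tsc22d3 encodes GILZ, a leucine zipper protein with anti-inflammatory action, Fkbp5 a cochaperone that lowers the affinity of the receptor for hormone, Sgk1 a serine/threonine kinase related to AKT, Zbtb16 the zinc finger repressor PLZF, Klf9 a Krüppel-like transcription factor, and Errfi1 an inhibitor of the epidermal growth factor receptor.

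The promoter windows of these genes were searched for the response element. The windows came from RefSeq (GRCm38.p6) and ran from 250 bases before to 50 bases after each annotated start. They covered 6 of the 8 genes in 14 windows, with no entry for Nr3c1 and Zbtb16. The full element was written as AGAACA, any 3 bases and TGTTCT, which reads the same on both strands, and each of its ends, AGAACA or TGTTCT, counted as a hexamer, so that a full element holds both hexamers. A complete element without a mismatch was found in 3 of all 32851 windows (0.00913%), and 1 of these belonged to Sgk1. Its first base lay at position -189 relative to the start. Hexamers were present in 4 of the 14 windows, in 3 of the 6 windows of Sgk1 and 1 of the 3 windows of Tsc22d3, against 19% of all windows. The 2 windows below are the Sgk1 window with the complete element, which is also the window with the most hexamers, and the Tsc22d3 window with a hexamer. They are printed from 250 bases before the start up to the start, 5′ to 3′ on the strand of the gene, with the hexamers in capitals. The Sgk1 stretch is chr10:21993640-21993889 on the plus strand and the Tsc22d3 stretch is chrX:140600523-140600772 on the minus strand.
Sgk1: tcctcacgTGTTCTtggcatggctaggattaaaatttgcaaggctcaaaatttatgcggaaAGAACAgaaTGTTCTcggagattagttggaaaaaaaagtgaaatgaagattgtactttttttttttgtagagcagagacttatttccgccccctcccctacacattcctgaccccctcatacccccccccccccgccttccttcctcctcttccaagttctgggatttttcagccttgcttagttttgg
Tsc22d3: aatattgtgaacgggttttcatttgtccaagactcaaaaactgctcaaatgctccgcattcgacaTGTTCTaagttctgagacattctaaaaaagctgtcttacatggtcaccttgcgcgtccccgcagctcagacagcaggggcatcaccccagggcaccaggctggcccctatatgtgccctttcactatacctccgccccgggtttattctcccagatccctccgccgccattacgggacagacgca
In the Sgk1 stretch the complete element is the run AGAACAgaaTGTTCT, and a further hexamer begins at position -242. The hexamers were not found in the windows of Hsd11b1, Fkbp5, Klf9 and Errfi1, which says only that these letters do not occur there. The counts are per gene and do not tell from which start the reads came.

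Between 24129900 and 30578639 reads per library were counted on genes. Levels are given as CPM (reads per 1000000 reads of the library) after scaling with TMM factors of edgeR, which lay between 0.832 and 0.901 for PF and between 0.880 and 1.36 for AF libraries. The quasi-likelihood test of edgeR was used for AF against PF, and an adjusted p (Benjamini-Hochberg over all genes tested) below 0.05 counts as past the threshold. The log2 ratio is the log2 fold change of AF over PF, SE is its error, and ± gives the SD over the 5 PF or the 7 AF livers. Adjusted p values come from this edgeR test unless another is named. The p-values measure the spread between these mice. In a principal component analysis of all genes tested, AF replicate 6 lay nearest to the PF livers on the first component (-7.73, against -73.3 to -52.5 in PF), and AF replicate 1 lay farthest from them (83.9).

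Of the 8 genes, Sgk1 was higher and Nr3c1, Tsc22d3 and Errfi1 were lower in AF livers. The other 4, Hsd11b1, Fkbp5, Zbtb16 and Klf9, did not pass the threshold. Without AF replicate 6, Klf9 and Zbtb16 passed too and 5 genes were lower. Among all genes tested 22.0% were higher and 17.8% were lower in AF livers, so 1 higher and 3 lower genes of 8 are to be read against a background in which 39.8% of genes were called. The median log2 ratio of the 8 genes was -0.66, beside 0.04 over all genes tested. The direction of each of the 8 genes was the same under the 6 alternatives and without any single library. Groups that did not overlap were found for 2 of the 8 genes, both lower in AF, against 17.7% of all genes tested, 8.20% being higher and 9.49% lower.

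**Figure D1:**
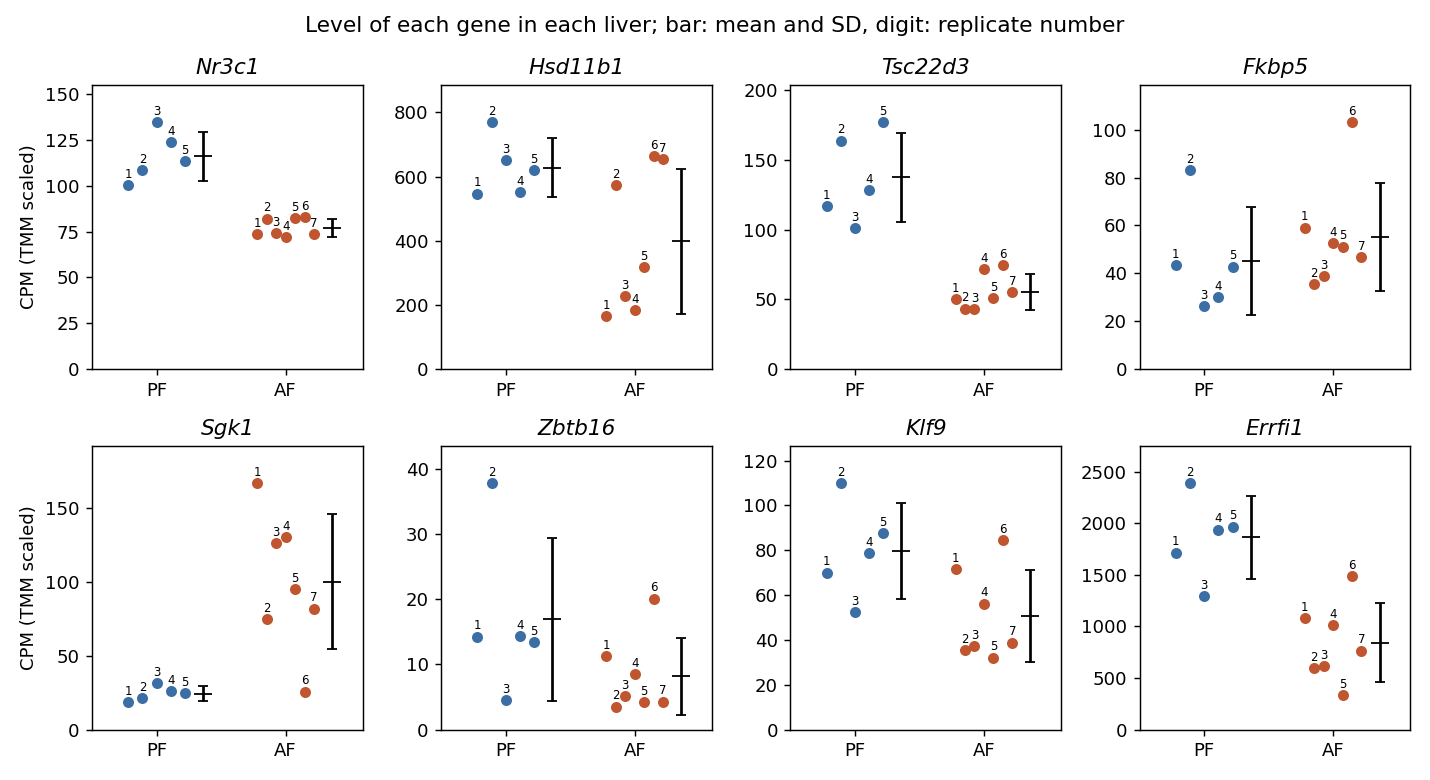
Level of each gene in each of the 12 livers, in CPM on a linear axis from 0, for PF (blue, n = 5) and AF (orange, n = 7) mice. Digits are replicate numbers and the black bar gives mean and SD. All AF livers lie below all PF livers for Nr3c1 and Tsc22d3, whereas AF replicate 6 lies within the PF range for Sgk1.

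The receptor gene itself, Nr3c1 (ENSMUSG00000024431, chromosome 18, 39410545 to 39519421, GRCm38), was at 100.2, 108.7, 134.8, 123.7 and 113.2 CPM in PF replicates 1 to 5. In AF livers its lowest value was 71.8, its median 74.1 and its highest 82.9 CPM. All 7 AF livers were thus below the lowest PF liver, and they lay close together. Mean levels were 116 ± 13.4 CPM in PF and 77.2 ± 4.90 CPM in AF livers, a log2 ratio of -0.59 (SE 0.0862, edgeR adjusted p = 0.000312). An exact two-sided permutation test of mean log2 CPM over the 792 splits of the mice gave p = 0.00126, the smallest p these splits allow. This call rested on the scaling of the libraries. On library totals without TMM factors, where the median log2 ratio of all genes rose from 0.04 to 0.40, Nr3c1 had a log2 ratio of -0.24 (edgeR adjusted p = 0.103). These are values of whole liver, in which fewer cells of a type and less RNA per cell cannot be told apart.

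Hsd11b1 (ENSMUSG00000016194, chromosome 1, 193221634 to 193264075), which supplies the receptor with active hormone, was at 547, 770.1, 651, 552 and 620.5 CPM in PF replicates 1 to 5. AF livers ran from 165 through a median of 318 to 664 CPM. They fell apart into AF replicates 2, 6 and 7, at 573, 664 and 653 CPM within the PF range, and AF replicates 1, 3, 4 and 5, all at 318 CPM or less and below every PF liver. The SD was 225 CPM in AF against 91.1 CPM in PF livers, and the log2 ratio of -0.66 was not past the threshold (SE 0.350, edgeR adjusted p = 0.147, 95% interval -1.41 to 0.09). The quality-weighted limma-voom fit put it past the threshold (log2 ratio -1.03, adjusted p = 0.0106). The summed CPM of 8 hepatocyte markers ran from 46481 to 96531 in AF and from 92098 to 134646 in PF livers. With edgeR 4 of the 8 markers were lower in AF, where 17.8% of all genes tested were. The number lower was 6 with DESeq2, with limma-voom with sample quality weights or without AF replicate 6, and 4 on library totals. Among AF livers the sum was highest in replicates 6 and 7, but AF replicate 3, with low Hsd11b1, had a higher sum (72792) than AF replicate 2, with high Hsd11b1 (69467). Most of the sum was Alb, the albumin gene, which was not past the threshold (edgeR adjusted p = 0.164). The 4 lower markers were Fabp1 (log2 ratio -1.43), Apoa1 (-1.21), Serpina1c (-1.13) and Cps1 (-0.88). For all but Serpina1c every AF liver was below every PF liver, as for 9.49% of all genes tested. These markers were named after their values were seen. The part of hepatocyte content in the levels of Hsd11b1 and of the lower genes was not tested.

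Tsc22d3 (ENSMUSG00000031431, chromosome X, 140539528 to 140600659), the gene of GILZ, was at 117, 164, 101, 128 and 177 CPM in PF replicates 1 to 5. AF livers had between 42.8 and 74.6 CPM with a median of 51.0. No AF liver reached the lowest PF liver. The means of 138 ± 32.0 CPM and 55.5 ± 12.9 CPM gave AF livers 0.404 times the PF level, a log2 ratio of -1.31 (SE 0.175, edgeR adjusted p = 0.000169). The exact two-sided permutation p was 0.00126. It was past the threshold under the 6 alternatives and without any single library, with log2 ratios from -1.41 to -0.96.

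Sgk1 (ENSMUSG00000019970, chromosome 10, 21882184 to 21999903), whose window holds the complete element printed above, was the gene that rose. It was at 18.4, 21.5, 31.4, 26.1 and 24.7 CPM in PF replicates 1 to 5 and at 25.8 to 167 CPM in AF livers, with a median of 95.02. In 6 of the 7 AF livers it was above every PF liver, and AF replicate 6 was the exception at 25.8 CPM. Mean levels were 24.4 ± 4.90 CPM and 100.1 ± 45.9 CPM, 4.09 times as high in AF (log2 ratio 2.03, SE 0.353, edgeR adjusted p = 0.000928, exact two-sided permutation p = 0.00758). Leaving out AF replicate 6 gave a log2 ratio of 2.20, and leaving out AF replicate 1, which had the highest level, gave 1.87. In 6 of the 7 AF livers a level of Sgk1 above all PF livers thus stood beside levels of Nr3c1 and Tsc22d3 below all PF livers. Some marker lists of other liver cells moved in the same direction as Sgk1 and others did not. Of the genes tested, 6 of 8 for stellate cells and fibroblasts and 4 of 7 for recruited macrophages were higher in AF livers. So were 4 of 6 for Kupffer cells and 4 of 5 for bile ducts, where 22.0% of all genes were. No marker of these lists was at 0 in all libraries. Gpnmb and Trem2 of the recruited macrophage list had means of 0.645 and 0.549 CPM in PF livers. Krt19 and Krt7 of the bile duct list had means of 0.214 and 0.325 CPM there. All of these genes passed the filter on counts through the AF livers, and Cldn7 of the bile duct list did not pass it. The shares of these lists were thus partly set by the filter. Krt19, Krt7 and Cldn7 were named after their values were seen. Of the markers of sinusoidal endothelium 1 of 6 was higher (5 of 6 on library totals, where 6458 of all 14168 genes were), and of those of neutrophils, T and NK cells, B cells and red blood cells 0 were (given with the other tools at the end). The summed CPM of recruited macrophage markers was 71.6 to 296 in PF and 142 to 1619 in AF livers, lowest of the AF livers in replicate 6 and highest in replicate 1, as was Sgk1. For stellate cell markers it was 189 to 484 in PF and 408 to 1033 in AF livers, again with AF replicate 6 lowest and AF replicate 1 highest. The other sums did not follow this order. The Kupffer cell sum (603 to 811 in PF, 794 to 2431 in AF livers) was lowest of the AF livers in replicate 1 and highest in replicate 3, and the bile duct sum (49.9 to 244 in PF, 70.5 to 1094 in AF livers) was lowest in replicate 7 and highest in replicate 1. Of the recruited macrophage markers Gpnmb (log2 ratio 7.76), Trem2 (4.55), Itgax (2.92) and Cd9 (1.45) were higher. For all but Itgax every AF liver was above every PF liver, as for 8.20% of all genes tested. Most of the recruited macrophage sum came from Spp1 (126 ± 77.5 CPM in PF, 404 ± 365 CPM in AF livers), which is also in the bile duct list and was not past the threshold (edgeR adjusted p = 0.0635), and Ly6c2 of the same list had a log2 ratio of -0.84 (edgeR adjusted p = 0.219). These 6 genes were named after their values were seen. The part of these cells in the level of Sgk1 was not tested.

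Errfi1 (ENSMUSG00000028967, chromosome 4, 150853919 to 150868892), which brakes growth factor signalling, had the most reads of the 8 genes. It was at 1717, 2394, 1298, 1940.2 and 1967 CPM in PF replicates 1 to 5, and in AF livers at 336 to 1489 CPM with a median of 767. AF replicate 6 alone overlapped the PF livers, and the other 6 AF livers were below all of them. The means of 1863 ± 399.8 CPM and 843 ± 382 CPM differed by a log2 ratio of -1.14 (SE 0.301, edgeR adjusted p = 0.00953, exact two-sided permutation p = 0.00631). The gene overlaps 1700045H11Rik on the opposite strand outside its exons. None of the 8 genes shares exon sequence with another annotated gene.

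Klf9 (ENSMUSG00000033863, chromosome 19, 23141226 to 23168134) was at 70.0, 110.1, 52.3, 78.6 and 87.5 CPM in PF replicates 1 to 5 and at 32.1 to 84.4 CPM in AF livers, with a median of 38.8. The groups overlapped, as AF replicates 1, 4 and 6 had at least the level of the lowest PF liver. Its log2 ratio of -0.65 lay just outside the threshold (SE 0.257, edgeR adjusted p = 0.0583). The adjusted p was 0.0346 with DESeq2 and 0.00845 with limma-voom with sample quality weights, but 0.372 on library totals. The gene passed the threshold without AF replicate 6 (log2 ratio -0.82, edgeR adjusted p = 0.0120), AF replicate 1 (-0.75, edgeR adjusted p = 0.0384) or PF replicate 3 (-0.77, edgeR adjusted p = 0.0391).

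Zbtb16 (ENSMUSG00000066687, chromosome 9, 48654297 to 48836222) had the fewest reads of the 8 genes, 3667 over all libraries. It was at 14.3, 37.8, 4.501, 14.4 and 13.4 CPM in PF replicates 1 to 5 and at 3.54 to 20.1 CPM in AF livers, with a median of 5.19. The spread was wide in both groups, since PF replicate 3 was as low as the lower AF livers and AF replicate 6 was above all but 1 PF liver. The log2 ratio was -1.05 (SE 0.502, edgeR adjusted p = 0.110). Without PF replicate 2, the highest liver, it was -0.51 (edgeR adjusted p = 0.418), and without AF replicate 6 it was -1.44 (edgeR adjusted p = 0.0205).

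Fkbp5 (ENSMUSG00000024222, chromosome 17, 28399094 to 28517527), a classic target of the receptor, did not pass the threshold in either direction. It was at 43.5, 83.2, 26.3, 30.1 and 42.8 CPM in PF replicates 1 to 5 and at 35.6 to 103 CPM in AF livers, with a median of 51.2. The groups overlapped and only AF replicate 6 was above all PF livers. The log2 ratio was 0.29 (SE 0.305, edgeR adjusted p = 0.462), and its 95% interval of -0.36 to 0.95 leaves room for a difference in either direction. Values that a single liver decides were 0.63 without PF replicate 2 and 0.07 without AF replicate 6.

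**Figure D2:**
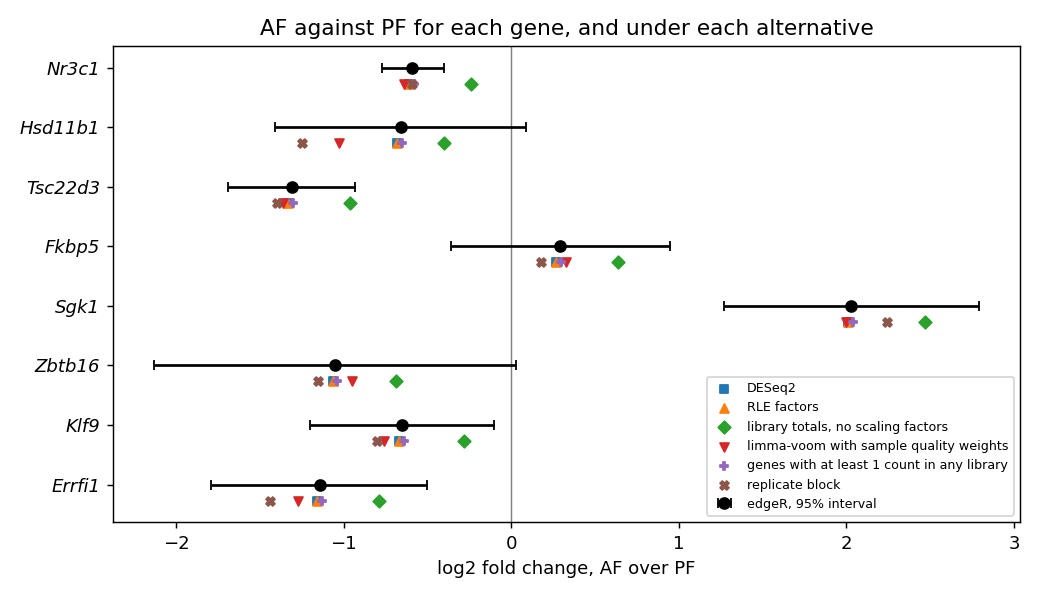
Log2 ratio of AF over PF for each of the 8 genes from edgeR with its 95% interval (black), and below it the value under 6 alternatives (coloured symbols). The intervals of Nr3c1, Tsc22d3, Sgk1, Klf9 and Errfi1 exclude 0 before adjustment, and library totals without scaling factors move every gene upwards, which takes Nr3c1 to -0.24 and Fkbp5 to 0.64.

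Per length of exon sequence, the 8 genes spanned a wide range of levels. In PF livers Errfi1 was highest (520.1 ± 112 RPKM), followed by Hsd11b1 (148 ± 21.4), Tsc22d3 (31.7 ± 7.38), Klf9 (16.6 ± 4.45), Nr3c1 (15.1 ± 1.75), Sgk1 (4.99 ± 0.999), Fkbp5 (4.77 ± 2.38) and Zbtb16 (3.20 ± 2.35). The ranges of Klf9 and Nr3c1, of Sgk1 and Fkbp5, and of Fkbp5 and Zbtb16 overlapped, whereas the other neighbours in this order did not. In AF livers the order differed in that Sgk1 stood next after Hsd11b1 (20.4 ± 9.35 RPKM), before Tsc22d3 (12.8 ± 2.97), Klf9 (10.5 ± 4.25), Nr3c1 (10.05 ± 0.638), Fkbp5 (5.84 ± 2.39) and Zbtb16 (1.54 ± 1.13). There, only Hsd11b1 and Sgk1 were neighbours whose ranges did not overlap, although Errfi1 was above Hsd11b1 in each of the 7 livers.

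The ratio of the reads of a pair of genes within a library does not depend on how libraries are scaled. Of the 28 ratios among the 8 genes, 6 did not overlap between the groups. Fkbp5 and Tsc22d3, both used as readouts of receptor activity, gave 1 of these 6. There were 0.372, 0.508, 0.259, 0.235 and 0.241 reads of Fkbp5 for each read of Tsc22d3 in PF replicates 1 to 5, and 0.731 to 1.38 in AF livers. All 7 AF livers had a higher ratio than any PF liver, and the mean log2 difference of the inverse ratio was -1.64. As background, the ratio to each of the other 14167 tested genes did not overlap for 2.87% of them for Fkbp5 and 61.1% for Tsc22d3, and for 38.3% for Nr3c1, 9.15% for Hsd11b1, 23.8% for Sgk1, 1.04% for Zbtb16, 6.58% for Klf9 and 25.9% for Errfi1. Fkbp5 was also higher in AF relative to Klf9 (0.383 to 0.755 in PF, 0.826 to 1.59 in AF) and to Errfi1 (0.0155 to 0.0347 in PF, 0.0520 to 0.152 in AF). Relative to Sgk1, Nr3c1 was lower in AF livers, with 4.30 to 5.44 reads for each read of Sgk1 in PF and 0.441 to 3.22 in AF. The remaining 2 ratios were those of Tsc22d3 to Sgk1, which was lower, and of Klf9 to Errfi1, which was higher in AF livers. These ratios were looked at after the levels were known and are given without a test.

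**Figure D3:**
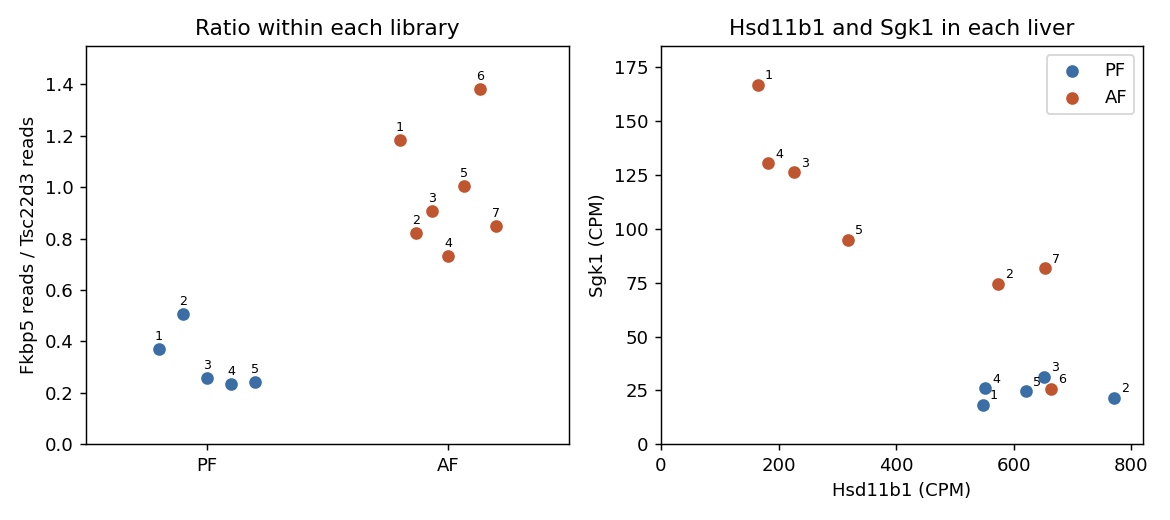
Left, reads of Fkbp5 divided by reads of Tsc22d3 in each library, where AF values (0.731 to 1.38) lie above PF values (0.235 to 0.508). Right, Sgk1 (vertical) against Hsd11b1 (horizontal) in CPM for each liver (PF blue, AF orange), where AF replicates 1, 3, 4 and 5 combine low Hsd11b1 with high Sgk1 and AF replicate 6 lies among the PF livers; digits are replicate numbers.

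Livers of the same group differed in a common way for 5 of the target genes. After subtraction of the mean of each group from log2 CPM, Pearson's r over the 12 livers ranged from 0.63 to 0.94 for the 10 pairs among Tsc22d3, Fkbp5, Zbtb16, Klf9 and Errfi1. The pair with the highest r was Zbtb16 and Klf9 (Pearson's r 0.94, Spearman's rho 0.94), and it was 0.97 in the 7 AF livers and 0.95 in the 5 PF livers alone. Without the 2 livers farthest from the median, r of the 10 pairs was between 0.36 and 0.91. For the 15 pairs of one of these genes with Nr3c1, Hsd11b1 or Sgk1, r lay between -0.54 and 0.20. Hsd11b1 and Sgk1 ran against each other in AF livers (r = -0.81) but not in PF livers (r = 0.11). These correlations describe the livers, were grouped after they had been seen, share the depth and scaling of each library, and carry no test. PF replicate 2 was the highest PF liver for 5 of the 8 genes, PF replicate 3 was the lowest for 5, and AF replicate 6 was the highest AF liver for 7 and the lowest for Sgk1.

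**Figure D4:**
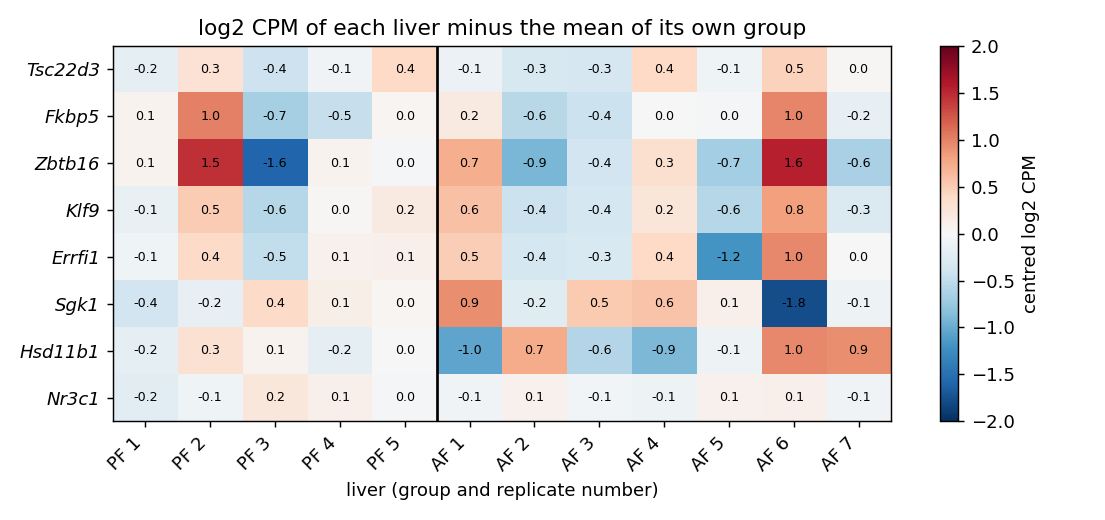
Log2 CPM of each gene in each liver minus the mean of its own group (colour and printed value). In the upper 5 rows PF replicate 2 and AF replicate 6 are high and PF replicate 3 is low, while Sgk1 is lowest in AF replicate 6 and Nr3c1 hardly varies within groups.

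The genes most like each of the 8 were sought among the 11197 genes whose mean log2 CPM reached 1, by Pearson's r of the same centred values over the 12 livers. Zbtb16 and Klf9 were each other's nearest gene. The next nearest genes were Tbc1d8 (r = 0.923) and Lpin1 (r = 0.904) for Zbtb16, and Vps37c (r = 0.918) and Ppp1r11 (r = 0.916) for Klf9. Nearest to Fkbp5 were Angptl4 (r = 0.938), Cebpb (r = 0.917) and Pim3 (r = 0.913), of which Angptl4, an inhibitor of lipoprotein lipase, and Cebpb, a transcription factor of the acute phase, stand in the list of glucocorticoid-induced genes below. Tsc22d3 was nearest to Foxo1 (r = 0.882), the forkhead factor that insulin holds in check, and Errfi1 to Leng9 (r = 0.944) and to Got1 (r = 0.937), an aspartate aminotransferase. Hsd11b1 was nearest to genes of other enzymes of the endoplasmic reticulum, Ugt1a1 (r = 0.983), Cyp3a13 (r = 0.979) and Cyb5a (r = 0.975), of which Ugt1a1 shares exons with the other genes of its cluster. Sgk1 was nearest to Shank2 (r = 0.958), Hpgds (r = 0.949) and Selenon (r = 0.945), and Nr3c1 to Zfp654 (r = 0.948), Map3k7 (r = 0.921) and Trpm7 (r = 0.905).

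Around the 8 genes, 86 further genes of 7 lists were tested, of which 12 (13.95%) were higher and 27 (31.4%) were lower in AF livers, beside 22.0% and 17.8% of all genes tested. On library totals, where 6458 of all 14168 genes were higher and 938 lower, the lists had 24 higher and 14 lower. With 39.8% of all genes called, the counts of the short lists below are descriptions. Among chaperones of the receptor, 3 of 12 were lower. These were Dnaja1 (log2 ratio -0.67, edgeR adjusted p = 0.00330), an HSP40 protein, Stip1 (-0.38, edgeR adjusted p = 0.0250), which links HSP70 to HSP90, and Fkbp4 (-0.37, edgeR adjusted p = 0.0131), the cochaperone that competes with the product of Fkbp5. On library totals the log2 ratios of Stip1 and Fkbp4 were not past the threshold (edgeR adjusted p = 0.900 and 0.940). Hsp90ab1, the constitutive HSP90 (1171 ± 169 CPM in PF, 1193 ± 123 CPM in AF), had a log2 ratio of 0.03 (edgeR adjusted p = 0.889), but on library totals it was higher (0.39, edgeR adjusted p = 0.0224). Stip1 was also short of the threshold without PF replicate 2 (edgeR adjusted p = 0.0728), PF replicate 4 or AF replicate 3. With the filter at 1 count in any library its log2 ratio was -0.37 (edgeR adjusted p = 0.0508). With edgeR 0 chaperones were higher, 1 at an unadjusted p below 0.05, 0 with DESeq2 and 4 on library totals. The number higher was 1 with limma-voom with sample quality weights and 1 without AF replicate 2. The median over the list was -0.09.

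Of 12 coregulators, 2 were higher and 2 were lower, where 22.0% and 17.8% of all genes tested were. On library totals 5 were higher and 1 was lower, where 6458 and 938 of all 14168 genes were. Ppargc1a, the coactivator of gluconeogenic genes, fell from 19.7 ± 7.59 CPM to 5.33 ± 0.581 CPM, a log2 ratio of -1.89 (edgeR adjusted p = 3.29e-05), with all AF livers below all PF livers. Ncoa2, a p160 coactivator, was lower (log2 ratio -0.36, edgeR adjusted p = 0.00198), although on library totals it had a log2 ratio of 0.01. Nrip1, the corepressor RIP140, and the histone deacetylase gene Hdac3 were higher, by log2 ratios of 0.64 and 0.29 (edgeR adjusted p = 0.0126 and 0.0134). The median over the list was -0.10.

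Of 10 tested genes of glucocorticoid supply and clearance, 1 was higher and 3 were lower, a share close to the 39.8% of all genes called. On library totals 3 of them were higher and 2 were lower. Srd5a1, a steroid reductase that inactivates corticosterone, was at 100.5 ± 15.1 CPM in PF and 22.02 ± 11.8 CPM in AF livers, a log2 ratio of -2.19 (edgeR adjusted p = 0.000414). Its relative Srd5a2 (log2 ratio -1.10, edgeR adjusted p = 0.00890) and the hydroxysteroid dehydrogenase gene Akr1c6 (-1.17, edgeR adjusted p = 0.0109) were lower as well. For all these 3 genes every AF liver was below every PF liver, as for 9.49% of all genes tested. Akr1c6 belongs to a gene family, and reads shared with its relatives make its value uncertain. On library totals Srd5a2 was not past the threshold (edgeR adjusted p = 0.0702). Abcb1a, an efflux pump that carries corticosteroids, was higher (log2 ratio 1.53, edgeR adjusted p = 0.0136). H6pd, which makes the cofactor for the enzyme of Hsd11b1 (log2 ratio 0.07, edgeR adjusted p = 0.798), and Serpina6, the plasma carrier of corticosteroids (0.29, edgeR adjusted p = 0.565), were not past the threshold, although H6pd was higher on library totals (0.39, edgeR adjusted p = 0.0212). Hsd11b2, the opposing enzyme of the kidney, was at 0.0905 CPM or less in PF and 0.104 CPM or less in AF livers and was not tested. Of the other steroid receptors 3 could be tested, and 2 were lower, the mineralocorticoid receptor gene Nr3c2, which also binds corticosterone (log2 ratio -0.84, edgeR adjusted p = 0.00773), and the oestrogen receptor gene Esr1 (-0.64, edgeR adjusted p = 0.00477). Neither was past the threshold on library totals (edgeR adjusted p = 0.142 and 0.170).

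Further genes that glucocorticoids induce were mostly lower or not past the threshold. Of 25, 9 were lower and 1 was higher, and the median log2 ratio was -0.55. Of all genes tested 17.8% were lower and 22.0% were higher. Without PF replicate 2, 5 were lower, and on library totals, with that shift of all genes, 5 were lower and 3 were higher. With DESeq2 or limma-voom, and without AF replicate 4 or AF replicate 7, 2 were higher. Lpin1, a phosphatidate phosphatase, fell most, from 333 ± 205 CPM to 37.1 ± 20.3 CPM, a log2 ratio of -3.17 (edgeR adjusted p = 0.000327). Zfp36, which destabilises cytokine mRNA (-1.77, edgeR adjusted p = 0.00153), and the repressor gene Bcl6 (-1.32, edgeR adjusted p = 0.00913) were lower too. Bcl6 was not past the threshold in the quality-weighted limma-voom fit (adjusted p = 0.127). Dusp1, the phosphatase MKP1, was also lower (-1.63, edgeR adjusted p = 0.00427, all 7 AF livers below all PF livers). It was at 122 CPM in PF replicate 2, at 27.4 to 57.5 CPM in the other PF livers and at 25.5 CPM or less in AF livers. Over the 12 fits without 1 library its log2 ratio ran from -1.80 to -1.11, past the threshold in each (edgeR adjusted p up to 0.0121). Tat, the tyrosine aminotransferase that is a textbook target in liver, was at 2898 ± 611 CPM in PF and 1357 ± 569 CPM in AF livers (log2 ratio -1.09, edgeR adjusted p = 0.00991, and 0.0592 on library totals). Of the gluconeogenic genes, Pck1 had a log2 ratio of -0.86 (edgeR adjusted p = 0.0715) but passed the threshold with DESeq2 (adjusted p = 0.0307), with limma-voom (adjusted p = 0.0318), without PF replicate 3 (edgeR adjusted p = 0.0328) and without AF replicate 7 (edgeR adjusted p = 0.0482), and G6pc had one of -0.55 (edgeR adjusted p = 0.152, and 0.0358 without AF replicate 2), and Per1, a clock gene with a response element, one of -0.77 (edgeR adjusted p = 0.201). The gene that rose was Cdkn1a, the cell cycle inhibitor p21, from 5.18 ± 4.18 CPM to 43.4 ± 27.2 CPM, a log2 ratio of 3.07 (edgeR adjusted p = 0.00102). Without PF replicate 5, at 12.5 CPM the highest PF liver, the log2 ratio was 3.70. Cdkn1a is also a target of p53.

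**Figure D5:**
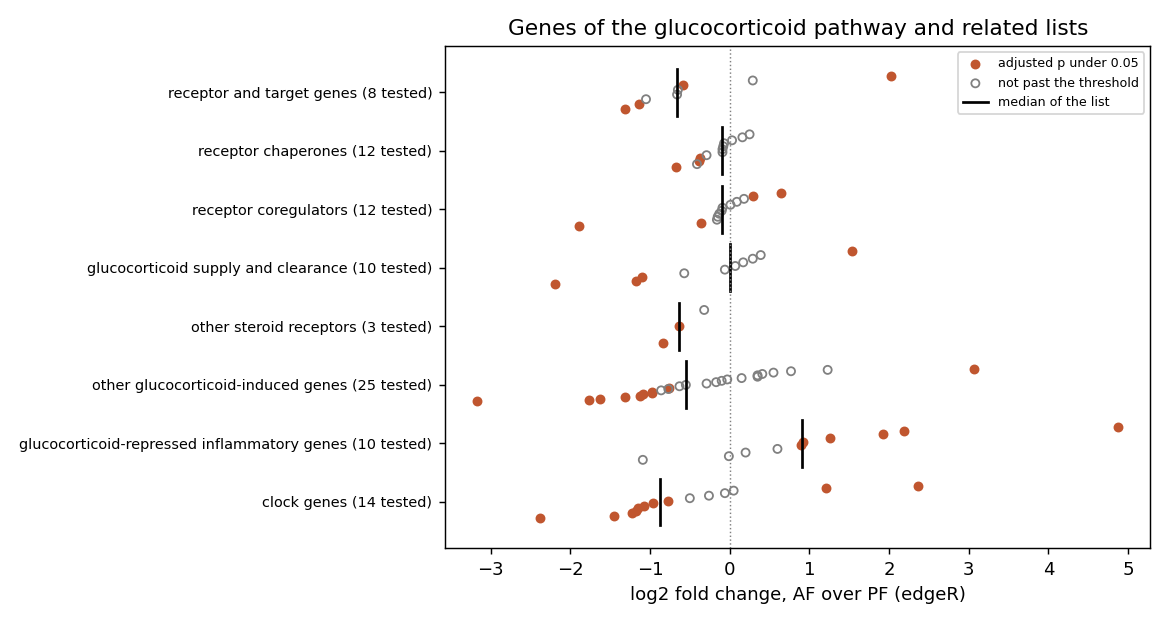
Log2 ratio of AF over PF for every tested gene of the 8 genes and of 7 further lists, filled where the edgeR adjusted p is below 0.05, with the median of each list as a black line. The medians lie at -0.66 for the receptor and target genes, -0.55 for other glucocorticoid-induced genes and 0.91 for inflammatory genes that glucocorticoids repress. Some of these inflammatory genes passed the filter on counts through the AF livers.

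Of 10 tested inflammatory genes that glucocorticoids are known to repress, 6 were higher and 4 were not past the threshold. Of all genes tested 22.0% were higher, and the median log2 ratio of the list was 0.91. Mmp13, Tnf and Cxcl2 had means of 0.179, 0.379 and 0.334 CPM in PF livers. They passed the filter on counts through the AF livers, where they were high. Il6 and Ptgs2, low in both groups, did not pass it and were not tested. The share higher and the median were thus partly set by the filter and are no test of the list. Cxcl1, a neutrophil chemokine gene and the most abundant of the list in PF livers, was among the 4 not past the threshold. Its log2 ratio was -1.09 (edgeR adjusted p = 0.174), and 4 AF livers were below all PF livers. Il1b had a log2 ratio of -0.01 (edgeR adjusted p = 0.980). Both were picked out after their values were seen. The summed CPM of the list overlapped between the groups (157 to 322 in PF, 149.9 to 341 in AF livers). With edgeR, 0 were lower, also 0 at an unadjusted p below 0.05 and 0 with DESeq2, limma-voom or library totals. Mmp13, a collagenase, rose from 0.179 ± 0.127 CPM to 5.51 ± 3.11 CPM, a log2 ratio of 4.88 (edgeR adjusted p = 4.17e-05). It was at 0.317 CPM or less in each PF liver and was tested only because the AF livers had enough counts. Its call was thus favoured by the filter, and its log2 ratio rests on few reads in PF livers. Tnf (2.19, edgeR adjusted p = 0.00138), the neutrophil chemokine gene Cxcl2 (1.92, edgeR adjusted p = 0.00239) and the interferon-induced chemokine gene Cxcl10 (1.26, edgeR adjusted p = 0.0497) were higher, and the call of Cxcl10 was lost with RLE factors (edgeR adjusted p = 0.0534), with the filter at 1 count and in 9 of the 12 fits without 1 library (edgeR adjusted p = 0.00677 to 0.112 over the 12), and its log2 ratio was 1.87 without PF replicate 5. Each AF liver was above each PF liver for 5 genes of the list, Mmp13, Tnf, Cxcl2, Icam1 and Vcam1, as for 8.20% of all genes tested. Icam1 was at 19.6 to 25.5 CPM in PF and 30.1 to 63.7 CPM in AF livers (log2 ratio 0.92, edgeR adjusted p = 0.000743). Vcam1 was at 23.9 to 55.3 CPM in PF and 60.01 to 106.5 CPM in AF livers (log2 ratio 0.90, edgeR adjusted p = 0.00503). Icam1 and Vcam1 were named after their values were seen. Without AF replicate 6, 1 gene of this list was lower. The higher markers of macrophages and stellate cells given beside Sgk1 moved in the same direction as this list, and their part in it was not tested.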

How the data were processed

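Whole liver RNA of 5 PF and 7 AF mice was sequenced, with 1 library per mouse. Per the methods and the submitters' processing notes, the authors enriched mRNA with oligo(dT), ran FastQC (0.10.1), aligned reads to GRCm38 with TopHat2 (2.0.13) and counted them with HTSeq (0.10.0). They deposited raw counts per Ensembl gene. The library kit was stranded. The annotation and strand setting of the counting are not given in the sources used here. The Cuffdiff2 test of the study needs aligned reads and was not repeated.

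GENCODE release M21 named 54165 of the 54232 genes. No library repeated another, the lowest ratio of difference to counting noise over 31 pairs within groups being 20.2. Counts were filtered with filterByExpr, scaled with TMM and tested in R 4.3.3 with edgeR 4.0.16 (quasi-likelihood test, no covariates, Benjamini-Hochberg adjustment over 14168 genes, threshold 0.05), with the SE taken from the F statistic. Single genes also had an exact permutation test on log2 CPM (prior count 2) over 792 splits, unadjusted. RPKM used exon lengths of GENCODE M21. Alternatives were DESeq2 1.42.0, RLE factors, library totals, limma-voom (limma 3.58.1) with sample quality weights, a filter at 1 count, the replicate number as a block, and each library left out. The steps were tested on simulated data.

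The 8 genes and all lists were chosen with earlier results of these data known. All 8 are named, and from each list up to 4 genes per direction with the largest change past the threshold, plus Dusp1, Per1, Tat, Pck1, G6pc, Hsd11b2, H6pd, Serpina6, Fkbp4, Hsp90ab1 and Nr3c2. Genes of like pattern are the 3 with the highest r for each gene, of which some are named. Marker lists of 10 cell types were also counted.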

Additional observations from a re-analysis of the deposited data

Results flagged for a closer look

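Fkbp5 in AF replicate 6, at 103 CPM, stood farther from the other AF livers than Dixon's limit allows, the next AF liver being at 59.1 CPM. Over the 8 genes, 16 sets of livers were checked and this was the 1 beyond the limit, where chance gives about 0.8 of 16. In the same liver Zbtb16 was at 20.1 CPM. In PF replicate 2 Zbtb16 (37.8 CPM) and Fkbp5 (83.2 CPM) came close to the limit. Without AF replicate 6 the log2 fold change of Fkbp5 was 0.07 in place of 0.29.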

How the results depend on the processing

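Sgk1, Tsc22d3 and Errfi1 kept their call under all 6 alternatives and without any single library. On library totals without scaling factors the number of genes higher was 6458 and lower 938 (87.3% of calls higher, against 55.3% with TMM), the other lists had 24 genes higher and 14 lower, the log2 ratio of Nr3c1 was -0.24 and no longer past the threshold, and Ncoa2, lower with TMM, had a log2 ratio of 0.01. With limma-voom with sample quality weights 5 of the 8 genes were lower, since Hsd11b1 (-1.03) and Klf9 (-0.76) passed, and with DESeq2 Klf9 passed (-0.67). With each library left out in turn, between 3 and 5 of the 8 genes were lower, with 5 only without AF replicate 6. Without 1 library the log2 ratio of Klf9 ran from -0.82 to -0.51, past the threshold without PF replicate 3 (-0.77), AF replicate 1 (-0.75) or AF replicate 6, and that of Zbtb16 from -1.44 to -0.51. The cause of these shifts was not tested, other than that library totals raised the median log2 ratio of all genes from 0.04 to 0.40.

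The labels do not say whether the replicate numbers pair the mice, and expression values alone cannot decide it. Correlations of the deviations of same-numbered livers ran from -0.075 to 0.117, and 2 of 5 PF and 1 of 5 AF livers correlated best with their own number. With the replicate number as a block 5 of the 8 genes were lower, with Hsd11b1 (-1.25) and Klf9 (-0.80) past the threshold. AF replicates 6 and 7 have no PF liver with their number, so the block also takes them out of the comparison. Shifts under the block were not told apart from the loss of these livers. With the block Cxcl10 lost its call (adjusted p = 0.0875), 1 gene of the inflammatory list was lower and 2 other glucocorticoid-induced genes were higher. The block gave 3395 genes higher and 2940 lower. Pck1 passed with the block (adjusted p = 0.0323).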

Other observations

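Several of the 8 genes, Klf9 above all, are also known to follow the daily rhythm, and the mice were killed between mid-morning and early afternoon on the day after the last binge, with no time per mouse in the sources used here. Of 14 clock genes tested, 8 were lower and 2 were higher in AF livers, beside 17.8% and 22.0% of all genes tested. On library totals 5 were lower and Per3 was not past the threshold (edgeR adjusted p = 0.0950), and with RLE factors Arntl was not (edgeR adjusted p = 0.0510). Nr1d1, the repressor REV-ERB alpha, was lower (log2 ratio -1.17, edgeR adjusted p = 0.000438), as were Ciart (-2.38, edgeR adjusted p = 0.0227), Dbp (-1.45, edgeR adjusted p = 0.0327) and Per3 (-1.23, edgeR adjusted p = 0.0417). Npas2 (2.37, edgeR adjusted p = 0.0422) and Arntl (1.21, edgeR adjusted p = 0.0479), the activators whose rhythm runs opposite to theirs, were higher. Npas2 had a mean of 0.435 CPM in PF livers and passed the filter on counts through the AF livers. The call of Npas2 was thus favoured by the filter. Over the 12 fits without 1 library, 0 to 2 clock genes were higher and 4 to 9 lower. Npas2, Arntl and Per3 lost their call in 8 of these fits each, Dbp in 5 and Ciart in 1, and Nr1d1 kept it in all 12 (edgeR adjusted p up to 0.00177). The log2 ratio of Ciart was -1.68 without PF replicate 2 (edgeR adjusted p = 0.0969) and -3.16 without AF replicate 6. Per liver, Dbp ran from 14.98 to 63.0 CPM in PF and from 3.93 to 25.5 CPM in AF livers. PF replicates 1 and 2 had 60.1 and 63.0 CPM of Dbp. AF replicate 6, the highest AF liver for 7 of the 8 glucocorticoid genes, had 22.8 CPM of Dbp and 6.07 CPM of Ciart, the highest value of Ciart among AF livers. The part of the time of day in the glucocorticoid genes was not tested.

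Of the remaining marker lists, 1 of 7 for T and NK cells (Cd4), 1 of 5 for B cells (Jchain) and 1 of 5 for red blood cells (Alas2) were lower. Of all genes tested 17.8% were lower and 22.0% were higher. The other 4 red blood cell genes, all globin genes, had log2 ratios of 0.81 to 1.02 that were not past the threshold. On library totals, where 6458 of all 14168 genes were higher, 4 of the 5 were. In addition, 1 of 6 for sinusoidal endothelium (Lyve1) was higher in AF livers, 2 with limma-voom and 5 on library totals. Cd4, Jchain, Alas2 and Lyve1 were named after their values were seen. For T and NK cells, B cells and red blood cells 0 markers were higher with edgeR, DESeq2 or limma-voom, and at an unadjusted p below 0.05 it was 3 for red blood cells and 0 for the others. Of the 5 B cell markers 3 were lower at an unadjusted p below 0.05, 1 with DESeq2 and 4 with limma-voom with sample quality weights. Of 7 neutrophil markers 0 passed the threshold with edgeR, while 0 were higher and 3 were lower at an unadjusted p below 0.05 and with DESeq2, and 1 was higher with limma-voom with sample quality weights.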
